A study of Mus musculus with 18 samples.

Results

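The 8 genes described here encode cholesterol synthesis enzymes (Acat2, Hmgcs1, Mvd, Idi1, Fdps, Sqle and Cyp51) and a feedback regulator of that pathway (Insig1), and were followed through 6 groups of mouse CD8 T cells. These 8 protein-coding genes were taken by name from a table of 23414 genes, and all 8 were among the 10257 genes that passed the filter on low values. They were listed with earlier results of these data known. The cells came from spleens of P14 mice, which carry a transgenic T cell receptor for gp33, a peptide from lymphocytic choriomeningitis virus. The mice were knockout (KO) for TrIP, encoded by Pik3ip1, in CD8 cells, or wild type (WT). Splenocytes were cultured for 24 h, always with recombinant IL-2 at 50 U/ml and recombinant IL-12 at 2 ng/ml. One condition had gp33 at 100 ng/ml with 10 µM of the PI3K delta inhibitor IC87114, another gp33 at 100 ng/ml alone, and the third no peptide. CD8 T cells were then sorted, and stranded polyA RNA libraries were sequenced, 3 per genotype and condition and 18 in all. Any effect on other spleen cells in the culture before the sort is part of each group. No promoter, Cre line, age or sex of the mice was given in the sources used here, and the labels do not say that the 3 libraries of a group came from separate animals, so p-values measure the spread between these libraries only.

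Cells build cholesterol from acetyl-CoA through mevalonate, isopentenyl units, farnesyl diphosphate, squalene and lanosterol. SREBP2, encoded by Srebf2, is held in the endoplasmic reticulum with its escort Scap while sterols are plentiful, through the anchor proteins Insig1 and Insig2, and is released to switch on the genes of the pathway when sterols fall. Insig1 is itself a target of SREBP, which closes a feedback loop. Activated T cells are known to raise this programme as they grow and divide.

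Promoter sequences, whose link to the levels was not tested, are shown for 4 of the genes as a description. Each runs 5′ to 3′ on the gene's strand from 250 bases before the start site to 50 bases after it, from RefSeq on GRCm38.p6, in which 6 of the 8 genes were found by symbol (all but Fdps and Sqle). Capitals mark the sterol regulatory element core TCACNCCA and the CCAAT box, searched on both strands, so that a CCAAT box on the other strand reads ATTGG. The Hmgcs1 window is chr13:119690101-119690400 on the plus strand, the Mvd window chr8:122443373-122443672 on the minus strand, the Idi1 window chr13:8885356-8885655 on the plus strand and the Insig1 window chr5:28071162-28071461 on the plus strand.
Hmgcs1: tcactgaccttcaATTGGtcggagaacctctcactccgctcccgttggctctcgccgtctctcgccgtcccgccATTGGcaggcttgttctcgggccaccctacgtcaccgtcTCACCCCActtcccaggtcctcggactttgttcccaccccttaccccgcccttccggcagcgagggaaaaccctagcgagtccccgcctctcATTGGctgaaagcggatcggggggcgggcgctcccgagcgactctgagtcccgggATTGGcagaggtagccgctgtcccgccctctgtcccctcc
Mvd: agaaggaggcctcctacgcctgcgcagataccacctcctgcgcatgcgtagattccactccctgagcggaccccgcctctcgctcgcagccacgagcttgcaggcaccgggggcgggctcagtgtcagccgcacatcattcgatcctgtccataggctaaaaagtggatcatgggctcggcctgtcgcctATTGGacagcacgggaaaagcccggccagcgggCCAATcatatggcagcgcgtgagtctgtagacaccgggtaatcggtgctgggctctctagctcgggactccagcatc
Idi1: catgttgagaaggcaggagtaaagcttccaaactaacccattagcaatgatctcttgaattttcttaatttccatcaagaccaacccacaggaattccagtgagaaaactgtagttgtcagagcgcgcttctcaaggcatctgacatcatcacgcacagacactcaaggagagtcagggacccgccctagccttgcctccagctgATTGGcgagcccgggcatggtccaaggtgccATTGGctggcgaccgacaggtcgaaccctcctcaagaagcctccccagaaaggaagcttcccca
Insig1: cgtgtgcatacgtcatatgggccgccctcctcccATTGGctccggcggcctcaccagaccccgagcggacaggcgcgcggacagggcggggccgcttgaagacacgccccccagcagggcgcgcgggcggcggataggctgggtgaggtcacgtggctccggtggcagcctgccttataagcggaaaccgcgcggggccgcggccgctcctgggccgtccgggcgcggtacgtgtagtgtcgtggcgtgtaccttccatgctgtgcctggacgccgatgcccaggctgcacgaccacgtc

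Of the 6 windows searched, 1 held the sterol element core, that of Hmgcs1, where it begins 137 bases before the start site. The same letters occur in 4.36% of 32851 RefSeq promoter windows of this length. A CCAAT box was found 4 times in the Hmgcs1 window, 2 times each in those of Mvd and Idi1, 1 time each in those of Cyp51 and Insig1, and 0 times in that of Acat2, against 37.4% of all windows with at least 1. The GC box GGGCGG, searched on both strands and not in capitals, was in all 6 windows, against 35.7% of all windows. The 3 motifs do not share letters in these windows. These are matches of letters and carry no statement about binding.

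A normalized value here is 2 to the power of the deposited value, minus 1, since the table behaves as log2(value + 1). Log2 fold changes are on that log2(value + 1) scale and understate the change of genes with values near 1, such as Mvd, Sqle and Cyp51. The order of the genes can therefore differ from that of their ratios of mean values. Levels of different genes cannot be compared, because the normalization is not given per length. Adjusted p-values are from limma with Benjamini-Hochberg adjustment over all 10257 genes tested, 2-sided, and a gene was called when the adjusted p was under 0.05. A difference in level can come from fewer cells of a type or from less RNA per cell, which cannot be told apart in sorted bulk samples.

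The gene named in the labels was checked first. Pik3ip1 averaged 2.42 ± 0.213 in libraries labelled KO and 0.632 ± 0.0213 in WT libraries with gp33 and IC87114 (SD, n = 3 each here and throughout). With gp33 alone it averaged 1.61 ± 0.0687 in libraries labelled KO and 0.764 ± 0.105 in WT, and without peptide 76.1 ± 2.36 in libraries labelled KO and 31.0 ± 2.43 in WT. It was thus higher, not lower, under the KO label in all 3 conditions, and every direction below that sets KO against WT rests on that label. The labels do not say which exons were removed, so a gene-level value does not test the deletion. Summed values per library ran from 521782 to 630652, and the share in protein-coding genes from 26.0 to 32.2%. Markers of CD8 T cells (6 genes) summed to 1286 to 1408 without peptide, 443 to 554 with gp33 and 540 to 748 with the inhibitor. In WT 5 of the 6 were called higher with the inhibitor than with gp33 alone, as were 3.31% of all genes tested. Between genotypes with gp33, Trac at 0.58 and Cd3e at 0.70 were called higher in libraries labelled KO and Cd8b1 at -0.53 lower, and Cd8b1 was also lower with the inhibitor at -0.44. The 4 listed CD4 T cell markers summed to 1.88 to 6.04 without peptide and 75.8 to 154 in the gp33 and inhibitor libraries, nearly all of it Tnfrsf4, which averaged 101 to 107 in those 4 groups. Among the others, Cd4 averaged 0.0643 or less in every group and Cd40lg 1.11 or less. The 4 NK cell markers summed to 0.242 to 1.60 in unstimulated libraries labelled KO, against 0 to 0.764 in unstimulated WT libraries, and to 0.0579 or less in the other 4 groups. Ncr1 averaged 0.671 in unstimulated libraries labelled KO and was at 0 in those of WT, where Klrb1c averaged 0.434. B cell markers (10 genes) summed to 77.7 to 133 in unstimulated libraries labelled KO, against 170 to 205 in unstimulated WT libraries. The 7 that passed the filter were all called lower there, as were 7.23% of all genes tested. In the gp33 libraries B cell markers summed to 6.52 to 10.2 under the KO label, against 6.98 to 7.84 in WT, and with IC87114 to 3.33 to 4.64 against 5.55 to 9.25, with 0 of the 7 called in either condition. Myeloid and dendritic markers (8 of 10 genes in the table) summed to 5.71 to 18 in gp33 libraries labelled KO, against 0.278 to 2.97 in WT, and 1 of the 4 that passed the filter was called higher, as were 14.9% of all genes tested. With IC87114 that sum was 7.10 to 44.1 under the KO label, against 0.245 to 10.8 in WT, and without peptide 75.0 to 158 against 1.99 to 31.1. Without peptide 2 of the 4 were called higher, as were 584 of all 10257 genes tested. Erythroid markers (4 of 5 genes in the table) summed to 3.52 to 10.3 in unstimulated libraries labelled KO, against 0.224 to 0.626 in WT. Both that passed the filter were called higher in that same comparison, Hba-a1 at 1.37 (adjusted p = 0.0139) and Hba-a2 at 1.61 (adjusted p = 0.0127). Under the KO label that sum was 0.137 to 0.894 with gp33 and 0.777 to 7.9 with the inhibitor, against 0 to 0.445 and 0.19 to 0.635 in WT, with neither gene called. The part of these cells in the results below was not tested.

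**Figure D1:**
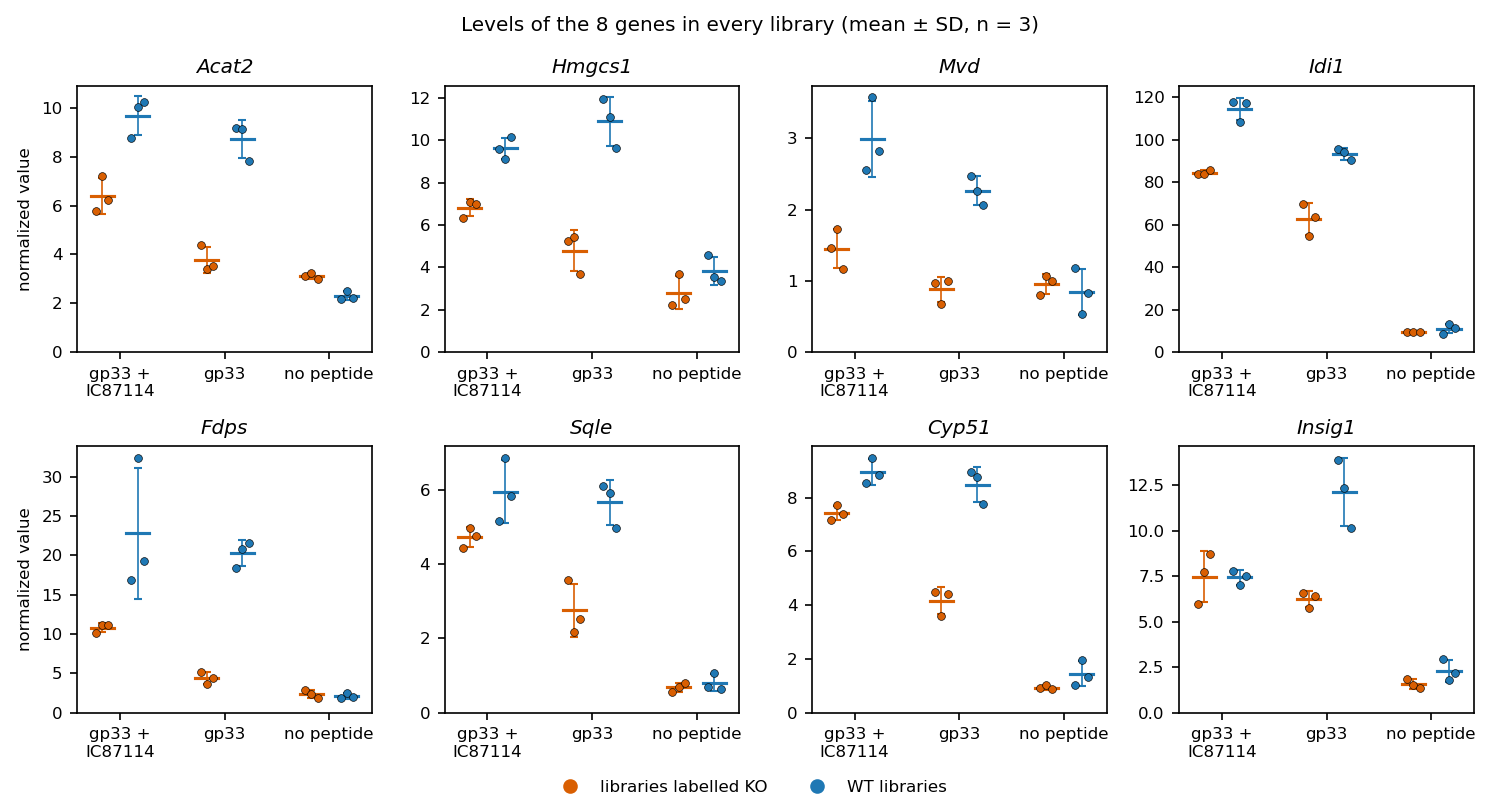
Normalized values of the 8 genes (vertical axes, linear, one scale per gene) in each of the 18 libraries, by culture condition; points are libraries, bars the mean and whiskers the SD of 3. In the gp33 condition the 3 libraries labelled KO lie below the 3 WT libraries for all 8 genes.

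Acat2 (ENSMUSG00000023832) encodes the cytosolic thiolase that joins acetyl-CoA units into acetoacetyl-CoA. With gp33 its normalized values were 4.38, 3.4 and 3.54 in libraries labelled KO, against 9.19, 9.15 and 7.81 in WT libraries. With gp33 and IC87114 they were 5.77, 7.20 and 6.22 in libraries labelled KO, against 8.78, 10.0 and 10.2 in WT. Without peptide they were 3.11, 3.24 and 2.98 in libraries labelled KO, against 2.19, 2.51 and 2.24 in WT. The genotypes did not overlap in any condition, with the libraries labelled KO lower in both gp33 conditions and higher without peptide. The log2 fold change, KO over WT, was -1.03 with gp33 (SE 0.10, adjusted p = 3.99e-06) and -0.53 with the inhibitor (SE 0.10, adjusted p = 0.00616). Without peptide it was 0.31 (SE 0.10, adjusted p = 0.0554), which did not pass. Acat2 was called higher there under 4 other settings (adjusted p from 0.0277 to 0.0483) and without gp33 KO replicate 1 (0.0415) or WT inhibitor replicate 2 (0.0377).

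Hmgcs1 (ENSMUSG00000093930) encodes the cytosolic synthase that makes HMG-CoA from acetoacetyl-CoA. Its values with gp33 were 5.23, 5.43 and 3.67 in libraries labelled KO, against 11.9, 11.1 and 9.65 in WT libraries. In the inhibitor cultures they were 6.35, 7.10 and 6.99 in libraries labelled KO, against 9.57, 9.12 and 10.1 in WT. In the unstimulated cultures they were 2.24, 3.68 and 2.49 in libraries labelled KO, against 4.60, 3.57 and 3.34 in WT. The KO and WT libraries were apart in both gp33 conditions and overlapped without peptide. The fold change, KO over WT, was -1.05 with gp33 (SE 0.150, adjusted p = 0.000151), and neither the -0.44 with the inhibitor (adjusted p = 0.129) nor the -0.35 without peptide (adjusted p = 0.148) passed. Without unstimulated KO replicate 2 the last was -0.51 and passed (adjusted p = 0.0377).

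Mvd (ENSMUSG00000006517) encodes the decarboxylase that turns mevalonate diphosphate into isopentenyl diphosphate, and had the lowest fold response to gp33 of the 8 in WT cells. With gp33 its values were 0.974, 0.682 and 1.00 in libraries labelled KO, against 2.47, 2.25 and 2.07 in WT libraries. With the inhibitor they were 1.46, 1.73 and 1.17 in libraries labelled KO, against 2.55, 3.58 and 2.83 in WT. Without peptide they were 0.800, 1.07 and 0.994 in libraries labelled KO, against 1.18, 0.538 and 0.827 in WT. The gp33 libraries labelled KO thus overlapped the unstimulated libraries of both genotypes, while the WT libraries with gp33 stood above all of these. KO over WT was -0.79 with gp33 (SE 0.132, adjusted p = 0.000547), -0.70 with the inhibitor (SE 0.132, adjusted p = 0.00636) and 0.09 without peptide (adjusted p = 0.732).

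Idi1 (ENSMUSG00000058258) encodes the isomerase that interconverts the isopentenyl units. Its values with gp33 were 69.5, 54.8 and 63.8 in libraries labelled KO, against 95.7, 94.0 and 90.3 in WT libraries. With the inhibitor they were 83.6, 83.9 and 85.9 in libraries labelled KO, against 118, 108 and 117 in WT. In the unstimulated cultures they were 9.62, 9.73 and 9.42 in libraries labelled KO, against 8.81, 13.1 and 11.5 in WT. Idi1 was therefore high in every gp33 library of either genotype, and the 4 gp33 groups were all apart from each other. KO over WT was -0.57 with gp33 (SE 0.113, adjusted p = 0.00193) and -0.43 with the inhibitor (SE 0.113, adjusted p = 0.0411). The second call was lost with any 1 of 12 libraries left out (adjusted p from 0.0516 to 0.134), with an offset of 0.1 in place of 1 (0.0512) and with no filter on low values (0.064). It held only without KO replicate 1 or WT replicate 1 or 2 of the unstimulated libraries, KO replicate 1 or 2 with gp33, or WT replicate 2 with the inhibitor. The -0.18 without peptide did not pass (adjusted p = 0.343), but passed at -0.33 without unstimulated WT replicate 1 (adjusted p = 0.0397).

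Fdps (ENSMUSG00000059743) encodes farnesyl diphosphate synthase, whose product feeds both the sterol branch and protein prenylation. With gp33 its values were 5.15, 3.69 and 4.35 in libraries labelled KO, against 18.4, 20.8 and 21.6 in WT libraries. With the inhibitor they were 10.1, 11.1 and 11.1 in libraries labelled KO, against 16.8, 32.3 and 19.3 in WT. Without peptide they were 2.87, 2.43 and 1.81 in libraries labelled KO, against 1.88, 2.50 and 1.97 in WT. Both gp33 conditions had all libraries labelled KO below all WT libraries, and the unstimulated genotypes overlapped. KO over WT was -1.98 with gp33 (SE 0.192, adjusted p = 3.92e-06), the furthest from 0 of the 8, with a ratio of mean values of 0.217. With the inhibitor it was -0.96 (SE 0.192, adjusted p = 0.00907), and without peptide 0.11 (adjusted p = 0.8). The inhibitor WT library at 32.3 is replicate 2, which had the lowest mean correlation with its own group of all 18 libraries (0.961, others 0.978 to 0.996). Without that library the inhibitor difference of Fdps was -0.69 (adjusted p = 0.0135).

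Sqle (ENSMUSG00000022351) encodes squalene epoxidase, the first oxygen-requiring step and a further control point of the pathway. Its values with gp33 were 3.57, 2.17 and 2.52 in libraries labelled KO, against 6.11, 5.91 and 4.99 in WT libraries. With the inhibitor they were 4.44, 4.98 and 4.76 in libraries labelled KO, against 5.17, 6.87 and 5.84 in WT. In the unstimulated cultures they were 0.560, 0.688 and 0.792 in libraries labelled KO, against 0.688, 1.07 and 0.649 in WT. The genotypes stood well apart with gp33, whereas with the inhibitor the highest KO value, 4.98, lay just under the lowest WT value, 5.17. KO over WT was -0.84 with gp33 (SE 0.135, adjusted p = 0.000406), and neither the -0.27 with the inhibitor (adjusted p = 0.299) nor the -0.10 without peptide (adjusted p = 0.727) passed.

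Cyp51 (ENSMUSG00000001467) encodes lanosterol 14-alpha demethylase, an early step after the sterol ring is closed. With gp33 its values were 4.50, 3.58 and 4.40 in libraries labelled KO, against 8.94, 8.77 and 7.76 in WT libraries. With the inhibitor they were 7.17, 7.71 and 7.41 in libraries labelled KO, against 8.53, 9.48 and 8.84 in WT. Without peptide they were 0.899, 1.04 and 0.862 in libraries labelled KO, against 1.04, 1.96 and 1.34 in WT. The inhibitor libraries labelled KO lay just below the WT libraries, whereas the gp33 libraries labelled KO stood well below. KO over WT was -0.88 with gp33 (SE 0.117, adjusted p = 7.45e-05). The -0.24 with the inhibitor (adjusted p = 0.295) and the -0.32 without peptide (adjusted p = 0.0882) did not pass, but the unstimulated difference passed without WT replicate 1 (adjusted p = 0.0204) and on rescaled protein-coding genes (0.0339).

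Insig1 (ENSMUSG00000045294) encodes the feedback anchor that retains Scap and SREBP. Its values with gp33 were 6.56, 5.73 and 6.39 in libraries labelled KO, against 13.9, 12.4 and 10.2 in WT libraries. With the inhibitor they were 5.97, 7.73 and 8.73 in libraries labelled KO, against 7.80, 7.0 and 7.49 in WT. In the unstimulated cultures they were 1.85, 1.5 and 1.34 in libraries labelled KO, against 2.95, 1.77 and 2.16 in WT. Insig1 was the 1 gene of the 8 whose genotypes overlapped with the inhibitor. KO over WT was -0.85 with gp33 (SE 0.148, adjusted p = 0.00076), -0.0045 with the inhibitor (95% interval -0.32 to 0.31, adjusted p = 0.991) and -0.35 without peptide (adjusted p = 0.144).

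Set against WT, the libraries labelled KO had lower levels of all 8 genes after gp33, where 9.09% of all genes tested were called lower and 24% were called in either direction. Their 8 fold changes had a median of -0.87, against 0.0031 over all genes tested, with all 3 KO values below all 3 WT values for each (25.6% of all genes), and the ratio of mean values ran from 0.217 for Fdps to 0.672 for Idi1. All 8 calls remained with any 1 library left out. With the inhibitor 4 of the 8 were called lower (Acat2, Mvd, Idi1 and Fdps), where 2.61% of all genes were, with a median of -0.44 against 0.0074 over all genes. The 3 KO values lay below the 3 WT values for 7 of the 8, where 13.2% of all genes did. When the 6 inhibitor libraries were fitted alone, 0 of the 8 were called (adjusted p from 0.0912 to 0.173 for these 4 genes). Without peptide 0 of the 8 were called, where 12.9% of all genes were, and the 3 KO values lay above the 3 WT values for 1 of the 8, Acat2, as for 12.6% of all genes, while 4 of the 8 (Acat2, Hmgcs1, Cyp51 and Insig1) had unadjusted limma p-values under 0.05, from 0.00748 to 0.0328, as did 25.8% of all genes.

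**Figure D2:**
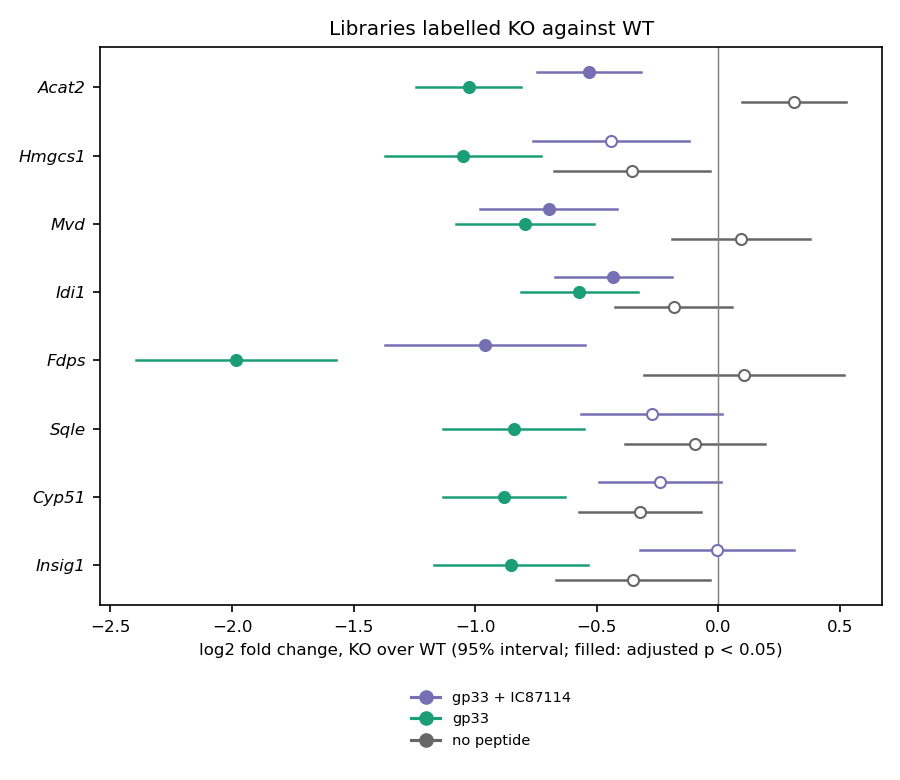
Log2 fold change of each gene, libraries labelled KO over WT, in the 3 culture conditions (horizontal axis, log2(value + 1) scale); lines are 95% intervals of the limma fit, and filled points have an adjusted p under 0.05. The gp33 points are filled for all 8 genes, from -1.98 for Fdps to -0.57 for Idi1, and 4 of the 8 inhibitor points are filled.

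The peptide response was then read within each genotype. In WT libraries all 8 genes were higher with gp33 than without peptide, where 42.1% of all genes tested were, and their median log2 fold change was 1.93 against 0.19 over all genes. Idi1 rose by 2.97 (SE 0.113, adjusted p = 1.07e-11) and Fdps by 2.77 (SE 0.192, adjusted p = 7.04e-09). Insig1, Cyp51 and Sqle followed at 2.00, 1.97 and 1.89, then Acat2 at 1.55, Hmgcs1 at 1.30 and Mvd at 0.83 (adjusted p = 4.69e-05). By ratio of mean values the order differed, with Fdps at 9.58, Idi1 8.36, Sqle 7.06, Cyp51 5.87 and Insig1 5.29. Acat2, Hmgcs1 and Mvd came after these at 3.77, 2.84 and 2.66. In libraries labelled KO 6 of the 8 were higher with gp33 than without peptide, where 41.1% of all genes were, with a median of 0.91 against 0.20. Idi1 rose by 2.58 (SE 0.113, adjusted p = 5.3e-11), Insig1 by 1.5, Cyp51 by 1.41, Sqle by 1.15, Fdps by 0.68 (adjusted p = 0.00557) and Hmgcs1 by 0.61 (adjusted p = 0.00238). Their ratios of mean values were, in that order, 6.54, 3.99, 4.45, 4.05, 1.86 and 1.70. The other two did not pass, Acat2 at 0.21 (95% interval -0.0041 to 0.43, adjusted p = 0.0754) and Mvd at -0.05 (95% interval -0.34 to 0.23, adjusted p = 0.726). Acat2 passed there without gp33 KO replicate 2 (0.27, adjusted p = 0.0498) and on rescaled protein-coding genes (0.33, adjusted p = 0.00854).

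The test of the difference between the 2 responses, KO minus WT, called 6 of the 8 lower, where 9.6% of all genes were. It uses the same gp33 libraries as the genotype comparison and is not separate evidence. The difference was -2.09 for Fdps (SE 0.271, adjusted p = 8.57e-05), -1.34 for Acat2 (SE 0.142, adjusted p = 1.57e-05), -0.89 for Mvd (SE 0.187, adjusted p = 0.00335) and -0.75 for Sqle (SE 0.191, adjusted p = 0.0109). Hmgcs1 at -0.70 (adjusted p = 0.0271) and Cyp51 at -0.56 (adjusted p = 0.0227) passed more narrowly, and Idi1 at -0.39 (adjusted p = 0.0878) and Insig1 at -0.50 (adjusted p = 0.0939) did not. The Hmgcs1 call was lost without unstimulated KO replicate 2, gp33 KO replicate 3, unstimulated WT replicate 2 or 3, or gp33 WT replicate 1 or 2 (adjusted p from 0.053 to 0.0694). That of Cyp51 was lost without replicate 2 of either KO group compared, unstimulated WT replicate 1, or gp33 WT replicate 1 or 2 (0.0514 to 0.0668). The Cyp51 call was also lost with an offset of 0.1 (0.162) or 0.5 (0.0601) in place of 1, and the Hmgcs1 call with an offset of 0.1 (0.0571), under quantile scaling (0.0525) and when the 12 libraries were fitted alone (0.0518). Without unstimulated WT replicate 2 Idi1 passed (0.0226), and without unstimulated WT replicate 1 Insig1 passed (0.0359).

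IC87114 was compared with gp33 alone within each genotype. In libraries labelled KO 7 of the 8 genes were higher with the inhibitor, where 9.17% of all genes tested were, and their median was 0.54 against -0.04 over all genes. Fdps rose by 1.14 (SE 0.192, adjusted p = 0.000495), Cyp51 by 0.71 (SE 0.117, adjusted p = 0.000371), Acat2 by 0.63 (SE 0.10, adjusted p = 0.000286) and Sqle by 0.63 (SE 0.135, adjusted p = 0.00298). Hmgcs1 at 0.45 (adjusted p = 0.0371), Idi1 at 0.43 (adjusted p = 0.0101) and Mvd at 0.38 (adjusted p = 0.0452) passed with less room, and Insig1 at 0.22 (95% interval -0.10 to 0.53, adjusted p = 0.306) did not pass. All 3 inhibitor values exceeded all 3 gp33 values for 7 of the 8 genes, where 25.5% of all genes did. The Mvd call was lost with any 1 of 12 libraries left out (adjusted p from 0.0517 to 0.182) and held only without KO replicate 1 or WT replicate 1 or 2 of the unstimulated libraries, KO replicate 3 with the inhibitor, or WT replicate 1 or 2 with the inhibitor. The Hmgcs1 call was lost without gp33 KO replicate 3 or any inhibitor KO replicate (0.0593 to 0.175), and the Idi1 call without gp33 KO replicate 2 (0.0618). On rescaled protein-coding genes the calls of Hmgcs1 (0.0706) and Mvd (0.06) were lost, as they were with no filter on low values (0.0532 and 0.0646), and that of Idi1 was lost under quantile scaling (0.0543).

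In WT libraries 1 of the 8 genes was called with the inhibitor. Insig1 was lower with the inhibitor than with gp33 alone, at -0.63 (SE 0.148, adjusted p = 0.0164), as were 5.15% of all genes tested, and 0 of the 8 were called higher, where 3.31% of all genes were (1 of the 8, Idi1, was higher at an unadjusted limma p of 0.0214, and 9.11% of all genes were higher at an unadjusted p under 0.05). That call was lost without gp33 WT replicate 1 (adjusted p = 0.0869) or 2 (0.0646), and when the 6 libraries were fitted alone (0.0798). The other 7 ranged from -0.16 for Hmgcs1 (95% interval -0.48 to 0.16) to 0.29 for Idi1 (95% interval 0.05 to 0.53, adjusted p = 0.129), and their intervals allow changes of that size. Idi1 passed without unstimulated WT replicate 1 (0.0488). The 3 inhibitor values exceeded the 3 gp33 values for Mvd and Idi1 (11.8% of all genes) and lay below them for Insig1 (20.3%).

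The test of the difference between the inhibitor responses, KO minus WT, called 4 of the 8 higher, where 3.27% of all genes were. These were Fdps at 1.02 (SE 0.271, adjusted p = 0.0284), Insig1 at 0.85 (SE 0.209, adjusted p = 0.0202), Cyp51 at 0.64 (SE 0.165, adjusted p = 0.0246) and Acat2 at 0.50 (SE 0.142, adjusted p = 0.0405). For Insig1 the called change with the inhibitor was the lower level in WT libraries, while the other 3 were called higher in libraries labelled KO. Hmgcs1 at 0.61 (adjusted p = 0.0854), Sqle at 0.57 (adjusted p = 0.0758), Idi1 at 0.14 (adjusted p = 0.633) and Mvd at 0.10 (adjusted p = 0.798) did not pass. These calls depended on single libraries: 0 of the 8 were called without gp33 KO replicate 2, inhibitor KO replicate 2 or inhibitor KO replicate 3. Only 1 was called without gp33 WT replicate 1 or 2, and 2 without gp33 KO replicate 3 or inhibitor WT replicate 1. The Fdps call alone was also lost without inhibitor KO replicate 1 (adjusted p = 0.0505), gp33 WT replicate 3 (0.0729) or inhibitor WT replicate 3 (0.056). Sqle passed without gp33 KO replicate 1 (0.0195) or inhibitor WT replicate 2 (0.0349). With an offset of 0.1 the Cyp51 call was lost (0.0645), the Acat2 call was lost on rescaled protein-coding genes (0.0511), and with the 12 libraries fitted alone Acat2 was lost (0.0645) and Hmgcs1 passed (0.0478).

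Against no peptide, the inhibitor cultures were higher for all 8 genes in both genotypes, where 39.6% of all genes were in each. The fold changes ran from 0.32 for Mvd (adjusted p = 0.0402) to 3.01 for Idi1 in libraries labelled KO and from 1.11 for Mvd to 3.26 for Idi1 in WT. The Mvd call under the KO label was lost without unstimulated KO replicate 1 or 3, or inhibitor KO replicate 1 or 2 (0.0656 to 0.156), and with no filter on low values (0.0587).

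**Figure D3:**
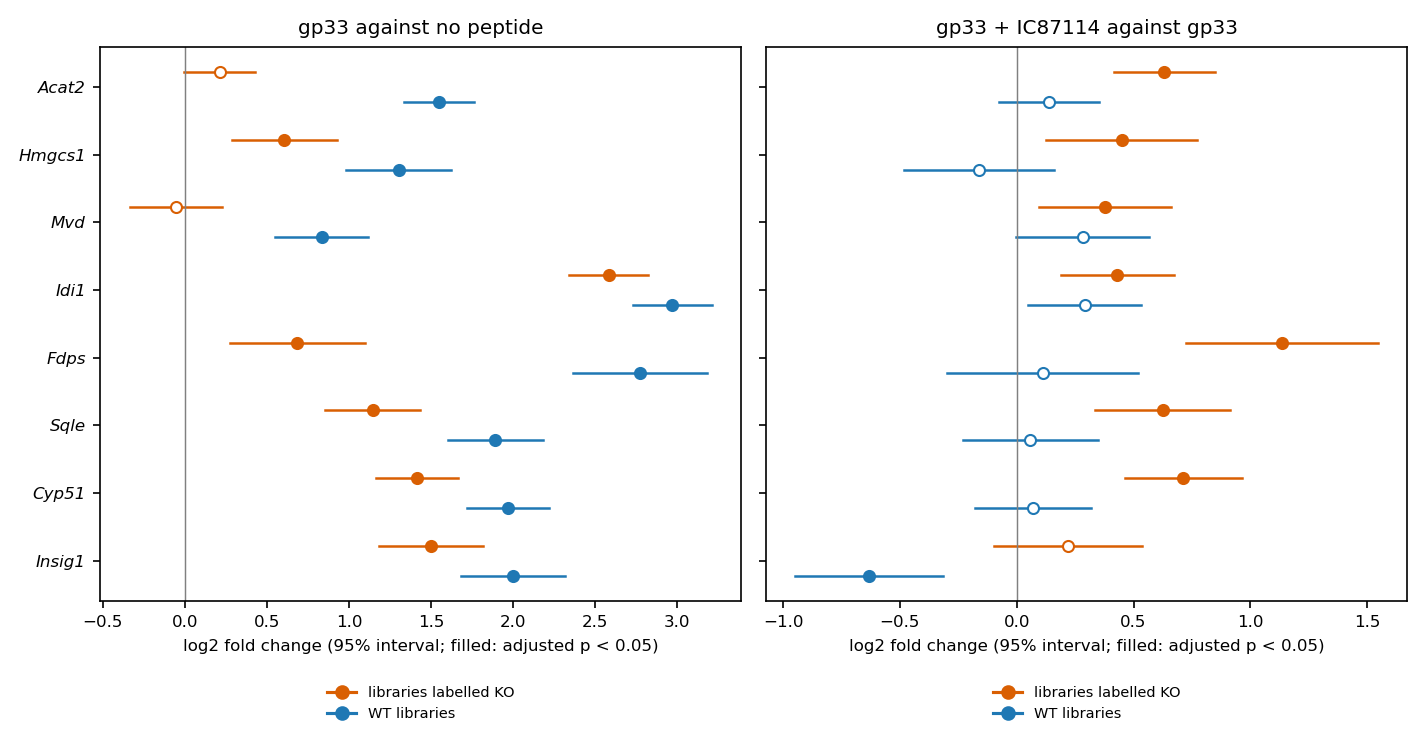
Log2 fold change of each gene with gp33 over no peptide (left) and with gp33 plus IC87114 over gp33 (right), for libraries labelled KO and WT libraries; lines are 95% intervals and filled points have an adjusted p under 0.05. On the left every WT point is filled and 6 KO points are, and on the right 7 KO points are filled above 0 and 1 WT point, Insig1, below it.

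Put in order of mean level over the 6 groups, the genes gave close to one sequence. From highest to lowest, Fdps, Cyp51, Sqle and Acat2 ran WT with inhibitor, WT with gp33, KO with inhibitor, KO with gp33, then the unstimulated groups. For these 4 genes the 2 WT gp33 groups overlapped, and each later step down to the unstimulated groups was between groups that did not overlap. The step from KO with inhibitor down to KO with gp33 was free of overlap for 25.5% of all genes. The share of all genes is not given for the other steps, so how common this sequence is was not tested. Hmgcs1 had WT with gp33 above WT with inhibitor, also overlapping, and its gp33 group labelled KO overlapped the unstimulated groups of both genotypes. In Idi1 and Mvd the inhibitor WT libraries lay above the gp33 WT libraries, as for 11.8% of all genes, and neither difference was called. For Mvd the lowest inhibitor WT value was 2.55, against a highest gp33 WT value of 2.47. The mean of Mvd in the gp33 group labelled KO, 0.885, lay below that of unstimulated KO, 0.955, with overlap. For Insig1 the highest group was WT with gp33, apart from the rest, and the inhibitor groups of both genotypes overlapped at means of 7.48 ± 1.4 (KO) and 7.43 ± 0.401 (WT).

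Over the 18 libraries each gene correlated with the mean standardised profile of the other 7, from a Pearson r of 0.823 for Mvd to 0.980 for Sqle (described without a test, over libraries that share 6 groups). Of 5792 other protein-coding genes tested, those most like the mean profile of the 8 included Fdft1 at r = 0.990, Ctla4 at 0.988 and Stard4 at 0.977, then Clns1a, Mrps17, Nt5dc2, Mcm7, Mrpl14 and Erg28 (0.969). Fdft1 encodes squalene synthase, the step between Fdps and Sqle, and Ctla4 an inhibitory receptor of activated T cells. Fdft1 averaged 2.55 ± 0.127 in libraries labelled KO and 3.64 ± 0.676 in WT libraries with the inhibitor. With gp33 it averaged 1.81 ± 0.160 under the KO label and 3.23 ± 0.0411 in WT, and without peptide 0.803 ± 0.126 under the KO label and 0.776 ± 0.0363 in WT. Ctla4 averaged 4.82 ± 0.559 under the KO label and 9.52 ± 0.721 in WT with the inhibitor, and with gp33 it averaged 2.63 ± 0.479 under the KO label and 8.41 ± 0.165 in WT. The most opposite profiles included those of Rnf6 (-0.980), Nipal1, Chmp1b and Mdm4 (-0.970).

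The other enzymes of the pathway were counted from a list of 14, of which 12 passed the filter on low values. After gp33, 9 of the 12 were lower in libraries labelled KO than in WT, where 9.09% of all genes were, and 0 were higher. Their median was -0.59 against 0.0031 over all genes. By smallest p the lower ones included Nsdhl at -0.68 (adjusted p = 3.92e-06), which acts in removing the sterol 4-methyl groups, the kinase Pmvk at -0.72 (adjusted p = 9.54e-06), and Msmo1 at -1.03 (adjusted p = 3.98e-05), which oxidises the same methyl groups. With the inhibitor 4 of the 12 were lower and 0 higher (Pmvk -0.60, Nsdhl -0.40, Tm7sf2 -0.57 and Fdft1), where 2.61% of all genes were lower. Without peptide 4 were lower and 0 higher (Lbr -0.46, Msmo1 -0.54, Tm7sf2 -0.36 and Sc5d), where 7.23% of all genes were lower, although the median was 0.0015.

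In WT libraries 11 of these 12 enzymes were higher with gp33 than without peptide, where 42.1% of all genes were. Among them were Pmvk at 1.47, Fdft1 at 1.25 and Sc5d at 0.97. The remaining 1 was lower, Lbr at -0.81, where 31.6% of all genes were lower. In libraries labelled KO 6 of the 12 were higher, near the share of 41.1% of all genes, among them Pmvk at 0.75 and Fdft1 at 0.64. Another 1 was lower, Ebp at -0.41, where 27.3% of all genes were lower. The responses differed by genotype in 7 with a lower KO response (Nsdhl -0.69, Pmvk -0.72, Lss -0.64 by smallest p), where 9.6% of all genes had a lower one. They differed in 1 with a higher KO response (Lbr 0.66), where 15.7% of all genes had a higher one. The inhibitor was followed by higher levels of 6 and lower levels of 0 in libraries labelled KO (Msmo1 1.12, Sc5d 0.70 and Ebp 0.68 by smallest p), where 9.17% of all genes were higher. In WT 0 were called either way, where 3.31% of all genes were higher and 5.15% lower. In WT 4 of the 12 had an unadjusted limma p under 0.05 (Tm7sf2 at 0.31, Msmo1 at 0.39, Sc5d at 0.22 and Pmvk at -0.17), as did 24.7% of all genes. The difference between the inhibitor responses was called for Msmo1 at 0.73 (adjusted p = 0.0202) and Sc5d at 0.48 (adjusted p = 0.0344), where 3.27% of all genes were called higher.

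Of 11 listed regulators and other targets of SREBP, 4 passed the filter (Insig2, Rnf139, Srebf2 and Stard4). Stard4, a sterol transporter and SREBP target, averaged 3.98 ± 0.430 in libraries labelled KO and 8.92 ± 0.474 in WT libraries with gp33, a fold change of -0.995 (SE 0.122, adjusted p = 3.66e-05). With the inhibitor it averaged 5.46 ± 0.440 under the KO label and 8.31 ± 0.625 in WT, at -0.53 (adjusted p = 0.0215), and without peptide it was already lower under the KO label, at -0.41 (adjusted p = 0.0385). Insig2, the paralogue of Insig1, went the other way with gp33, at 0.29 (adjusted p = 0.0175), with means of 1.34 ± 0.201 under the KO label and 0.907 ± 0.0736 in WT, where 14.9% of all genes were called higher. Without peptide Insig2 was lower under the KO label, at -0.34 (adjusted p = 0.0114), and its gp33 response differed between the genotypes by 0.64, KO minus WT (adjusted p = 0.00115). Srebf2 itself averaged 0.904 ± 0.0621 in libraries labelled KO and 1.06 ± 0.0469 in WT with gp33, a difference of -0.11 (95% interval -0.24 to 0.02, adjusted p = 0.213). Srebf2 with gp33 against no peptide did not pass in libraries labelled KO (0.08, adjusted p = 0.274) or in WT (0.06, adjusted p = 0.366). In the WT libraries Srebf2 was lower with the inhibitor than with gp33 alone, at -0.27 (adjusted p = 0.0141).

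The list of LXR, export and esterification genes had 2 of 9 genes past the filter, Mylip and Nr1h2. Nr1h2, encoding LXR beta, was 0.54 higher in libraries labelled KO with gp33 (adjusted p = 0.00891) and Mylip, encoding a ligase that degrades the LDL receptor, did not pass (0.07, adjusted p = 0.523). For Nr1h2 neither the 0.41 without peptide (adjusted p = 0.0555) nor the -0.21 with the inhibitor (adjusted p = 0.41) passed. The gp33 response was not called as different between the genotypes for either gene. Of 12 genes of the non-sterol isoprenoid branch, 5 passed the filter, and with gp33 2 were higher and 0 lower in libraries labelled KO. These were Ggps1, which makes geranylgeranyl diphosphate from the product of Fdps, at 0.39 (adjusted p = 0.00179), and the prenylation protease Zmpste24 at 0.26 (adjusted p = 0.00966), beside the 14.9% of all genes called higher there. Without peptide 2 of the 5 were lower and 0 higher under the KO label, where 7.23% of all genes were lower. These were Ggps1 at -0.30 (adjusted p = 0.0149) and Fnta, the alpha subunit of protein farnesyltransferase, at -0.42 (adjusted p = 0.0105). Ggps1 was lower with gp33 than without peptide at -0.57 in libraries labelled KO and -1.26 in WT (adjusted p = 1.33e-09), opposite in sign to Fdps. The lists outside the sterol enzymes hold few tested genes, so their medians in the plot of pathway lists are of 2 to 5 values.

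**Figure D4:**
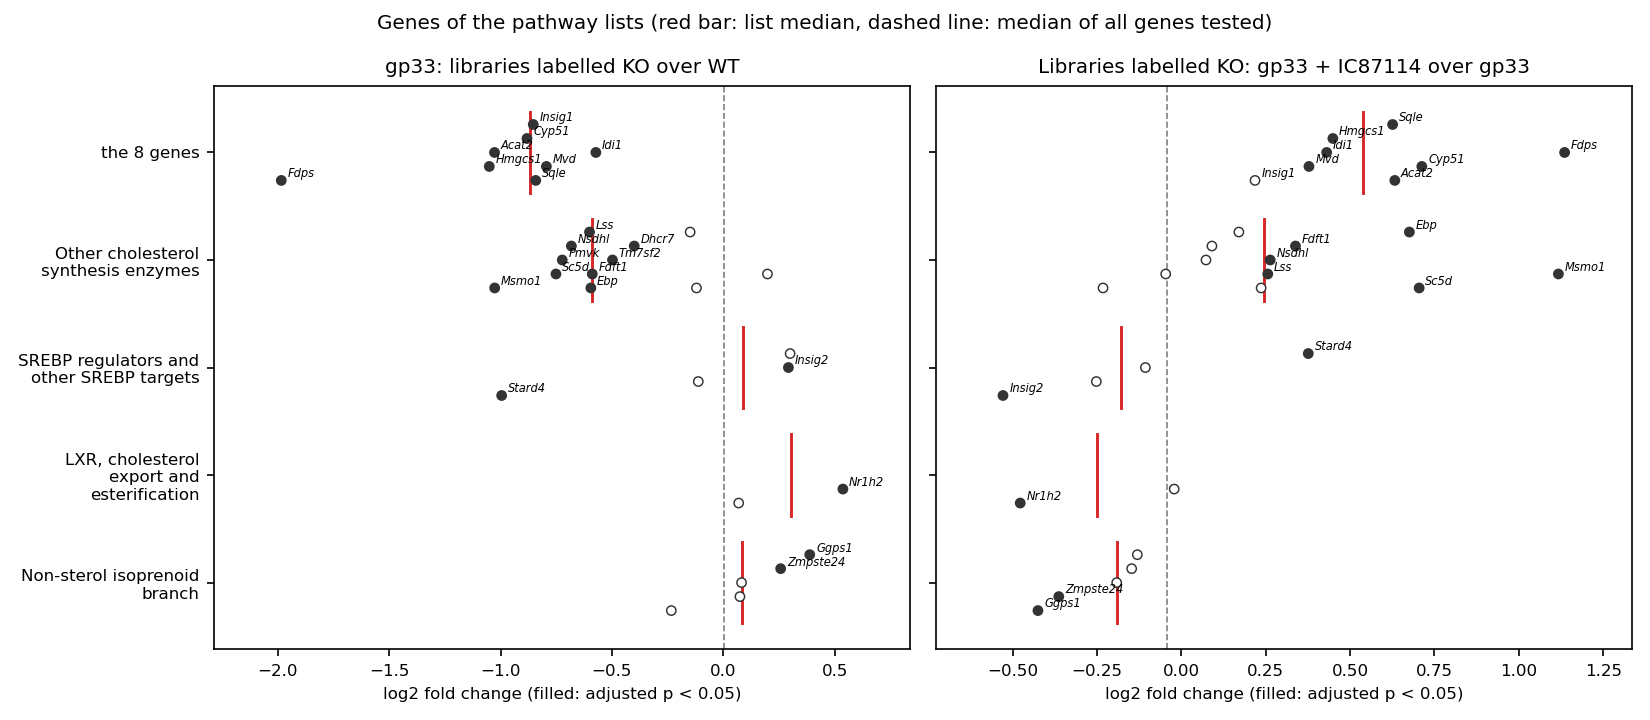
Log2 fold change (horizontal axes) of every tested gene of the 8 and of the 4 pathway lists, for libraries labelled KO over WT with gp33 (left) and for gp33 plus IC87114 over gp33 in libraries labelled KO (right); filled points have an adjusted p under 0.05, and names are given for these and for the 8. On the left the 8 genes and most other sterol enzymes lie below 0, with list medians of -0.87 and -0.59, and on the right most lie above it.

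Several of the genes have near-identical copies in the same table, so their values are uncertain in how reads were divided. Transcripts of the 8 genes were matched to those of other genes in the table over at least 200 bases at 90% identity or more. Fdps has 6 processed pseudogenes on its own strand, of which Gm3571 matches 1062 bases at 98.9%. Gm3571 was listed at 228 ± 38.9 in libraries labelled KO and 876 ± 25.0 in WT libraries with gp33, and at 532 ± 35.3 under the KO label and 801 ± 149 in WT with the inhibitor. Without peptide it was at 133 ± 16.2 under the KO label and 132 ± 22.8 in WT. Its KO over WT fold change with gp33 was -1.95 (SE 0.157, adjusted p = 6.78e-07), beside -1.98 for Fdps. In inhibitor WT replicate 2, where Fdps was highest at 32.3, Gm3571 was the lowest of the 3 at 629, against 898 and 875.

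Idi1-ps1 matches Idi1 over 684 bases at 100% and was listed at 216 ± 27.2 in libraries labelled KO and 341 ± 10.3 in WT libraries with gp33. Its fold change there was -0.66 (adjusted p = 0.00166), beside -0.57 for Idi1. Acat3, a coding paralogue 97.7% identical to Acat2, averaged 1.02 ± 0.0581 in libraries labelled KO and 1.53 ± 0.134 in WT with gp33, and its difference of -0.32 did not pass (adjusted p = 0.175). Matches on the opposite strand were Tcp1 for Acat2 (445 bases at 98.7%), Gm48342 for Hmgcs1 (462 bases at 100%) and Gm48574 for Idi1 (323 bases at 100%). These are matches of sequence, and positions in the genome were not compared. The libraries were stranded, but whether counting used strand was not given in the sources used here.

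When each gene was summed with its same-strand copies, which was chosen after seeing the data, the gp33 genotype calls stood at -1.96 for Fdps (adjusted p = 7.22e-07), -0.64 for Idi1 (0.00148) and -0.96 for Acat2 (1.53e-05). The sums for Fdps and Idi1 consist mostly of the copies. With gp33 in WT, Gm3571 was listed at 876 against 20.3 for Fdps, and Idi1-ps1 at 341 against 93.3 for Idi1. These 2 sums thus largely repeat the values of the copies and are not separate tests of Fdps and Idi1. With the inhibitor the summed Fdps difference was -0.56 (adjusted p = 0.0661) and that of Idi1 -0.39 (0.0934), so both calls were lost and 2 of the 8 remained, Acat2 and Mvd. Summed Acat2 passed for gp33 over no peptide in libraries labelled KO (0.34, adjusted p = 0.0102) and no longer for the difference of the inhibitor responses (0.41, adjusted p = 0.104). The summed Fdps kept its inhibitor response in libraries labelled KO at 1.24 (adjusted p = 4.88e-05).

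**Figure D5:**
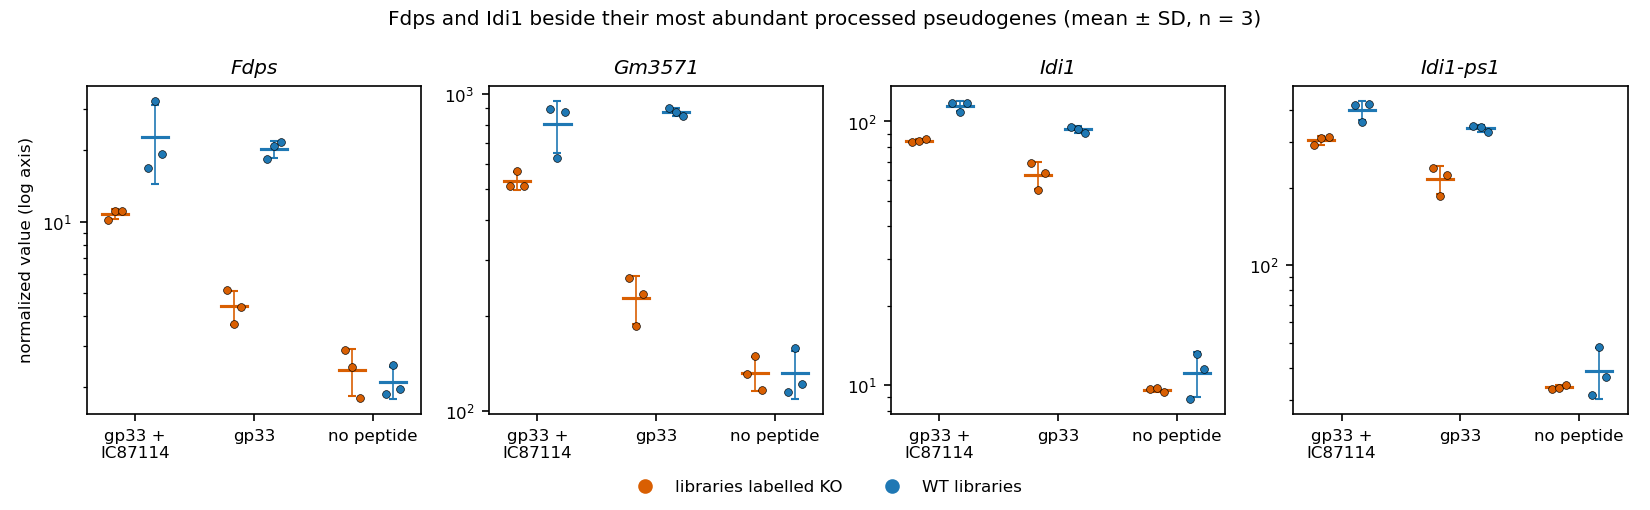
Normalized values (log axes) of Fdps and its processed pseudogene Gm3571, and of Idi1 and its processed pseudogene Idi1-ps1, in each library by condition; points are libraries, bars the mean and whiskers the SD of 3. In the gp33 condition the libraries labelled KO lie below the WT libraries in all 4 panels.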

How the data were processed

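RNA was measured in 18 libraries of sorted mouse CD8 T cells, 3 for each of 6 groups set by the titles and treatment fields. The protocol text describes gp33 for all samples, and the titles were followed where they differ. The deposited table gives 1 normalized value per gene and library, made by the authors with Partek per the file name, in values that behave as log2(value + 1). No aligner, counter, annotation, normalization method, log base or offset is stated in these sources, and the submitters' processing notes name GRCm38 and GRCm39 without a role. Natural logs were tried as another reading. The values are not whole reads, so depth is unknown and no counting interval is given.

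In R 4.3.3, limma 3.58.1 (with statmod 1.5.0) fitted a mean per group to the log2 values, and its empirical Bayes step used a trend and robust variances, with 12 residual degrees of freedom. A gene was kept if 3 or more libraries had a normalized value of 1 or above. The 11 comparisons were adjusted each over all 10257 genes, and called under 0.05. The code was tested on simulated data. Comparisons share libraries: those of the gp33 group labelled KO enter the genotype, peptide and inhibitor comparisons, so their results are not independent. The members, the pathway lists and the alternatives were chosen with earlier results of these data known. Named genes are the 8 members, Pik3ip1, up to 3 genes per list and comparison with the smallest p, and the 10 most and 5 least alike in profile, less a few that are not reported here, and any other is said to be chosen after its values were seen or follows from a count. Lbr and Ebp were named because each was the only gene of its list to go down, and Insig2, Srebf2, Ggps1, Zmpste24, Fnta, Nr1h2 and Mylip because few genes of their lists were tested. Alternatives were the offset, the filter, scaling, the fit, the replicate block and leaving out each library, and summing genes with their copies was added after the data were seen. Copies were found with blastn in GENCODE M21 transcripts.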

Additional observations from a re-analysis of the deposited data

Results flagged for a closer look

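The response to gp33 differed between the genotypes, by the limma test of the difference itself (KO minus WT, log2), in 6 of the 8 genes. All 6 were called lower, as were 9.6% of all genes tested. The difference was -1.34 for Acat2, -0.70 for Hmgcs1, -0.89 for Mvd, -2.09 for Fdps, -0.75 for Sqle and -0.56 for Cyp51. The response to IC87114 differed between the genotypes by the same kind of test in 4 of the 8. All 4 were called higher, as were 3.27% of all genes tested. The difference was 0.50 for Acat2, 1.02 for Fdps, 0.64 for Cyp51 and 0.85 for Insig1. Both tests use the same gp33 libraries. In the first, the Hmgcs1 call was lost with any 1 of 6 libraries left out and that of Cyp51 with any 1 of 5. The second rests on single libraries, as given with the results. The labels' KO direction was not borne out by the level of Pik3ip1, which was higher under the KO label.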

How the results depend on the processing

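Of 2629 values of single genes under another setting or with 1 library left out, 2499 kept their direction and their side of the threshold, 99 lost a call, 19 gained one and 12 changed sign, all 12 among values that were not called. The count of the 8 genes called moved from 0 to 1 for the unstimulated genotype comparison with an offset of 0.1 or 0.5, quantile scaling, rescaled protein-coding genes, or no trend and no robust fit. It moved from 4 to 0 for the inhibitor genotype comparison with the compared libraries alone and to 2 with copies summed, and from 1 to 0 for the inhibitor in WT with the compared libraries alone, where fewer residual degrees of freedom remain. Smaller moves included those from 7 to 5 for the inhibitor over gp33 in KO with no filter or rescaled protein-coding genes and to 6 under quantile scaling, from 6 to 4 for the difference of the gp33 responses with an offset of 0.1 and to 5 with 0.5, quantile scaling or the compared libraries alone, and from 4 to 3 for that of the inhibitor responses with an offset of 0.1, rescaled protein-coding genes or copies summed. With 1 library left out the counts ranged from 8 to 8 for KO over WT with gp33, 3 to 4 with the inhibitor and 0 to 2 without peptide. They ranged from 6 to 7 for gp33 in KO, 8 to 8 for gp33 in WT, 5 to 7 for the inhibitor over gp33 in KO and 0 to 2 in WT, and from 7 to 8 in KO and 8 to 8 in WT for the inhibitor over no peptide. The difference of the gp33 responses ranged from 4 to 6 and that of the inhibitor responses from 0 to 5. Signs changed with 1 library left out as follows, with the range over the libraries left out. In the unstimulated comparison Fdps ranged from -0.00078 (without KO replicate 1) to 0.23, Mvd from -0.033 (without WT replicate 2) to 0.22, and Sqle from -0.16 to 0.0078 (without WT replicate 2). With the inhibitor, KO over WT for Insig1 ranged from -0.11 to 0.13, and was above 0 without KO replicate 1, WT replicate 1 (0.027) or WT replicate 3 (0.0014). Mvd with gp33 in KO ranged from -0.11 to 0.026 (without gp33 KO replicate 2) and was 0.017 on rescaled protein-coding genes. For the inhibitor in WT, Sqle ranged from -0.033 (without inhibitor WT replicate 2, and -0.017 without gp33 WT replicate 3) to 0.14, and Fdps from -0.16 (without inhibitor WT replicate 2) to 0.29, with -0.17 when copies were summed. The cause was not tested. Quantile scaling moved the median of all genes by -0.10 for gp33 in WT, -0.14 for gp33 in KO and 0.11 for the inhibitor in KO, and rescaling moved gp33 in KO by 0.11. A filter at 5 leaves Mvd untested. Deviations from group means of only 3 libraries cannot settle whether replicate numbers or library letters pair the libraries. They correlated over 0.1 in 0 of 27 same-numbered pairs across genotypes and 4 of 18 pairs sharing a library letter. Among pairs with other numbers, 15 of 90 did. With the replicate number as a block the counts were 8, 3 and 0 for the genotype comparisons with gp33, inhibitor and no peptide, 6 and 8 for gp33 in KO and WT, 6 and 1 for the inhibitor over gp33, 7 and 8 over no peptide, and 6 and 3 for the differences. The block ended the calls of Idi1 between genotypes with the inhibitor (adjusted p = 0.0744), of Mvd for the inhibitor in KO over gp33 (0.0668) and over no peptide (0.0564), and of Acat2 for the difference of the inhibitor responses (0.0558). Unknown depth limits how the low values of Mvd and Sqle can be read.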
